A study of Arabidopsis thaliana with 12 samples.

Results

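The wild type Col-0 and the transgenic line iU1-52 were compared in whole *Arabidopsis thaliana* seedlings that had grown for 14 days on MS plates without added salt. The comparison used the 3 Col-0 and the 3 iU1-52 arrays of this condition, 6 of the 12 arrays of the series, which were chosen by the genotype and the plate named in the labels. The other 6 arrays held the same lines on MS plates with 200 mM NaCl. iU1-52 expresses double-stranded RNA against *GlcNA.UT1* in the *glcna.ut2-1* T-DNA mutant, and Col-0 carries neither change. The promoter of the RNA interference construct is not given in the sources used here. All values of the line come from 1 transgenic line, so an effect of the insertion site or of the line itself cannot be told apart from the loss of the targeted genes. The study describes the 3 replicates of each group as biological replicates.

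UDP-GlcNAc is the activated form of N-acetylglucosamine and the product of the hexosamine pathway, whose last step is carried out by the uridylyltransferases that *GlcNA.UT1* and *GlcNA.UT2* encode. It donates the sugar that starts every N-glycan in the endoplasmic reticulum (ER) and that the enzyme encoded by *SECRET AGENT* (*SEC*) attaches to proteins of the cytosol and nucleus. N-glycans help proteins to fold in the ER, and when unfolded proteins build up there, the membrane-bound factors bZIP28 and bZIP60 raise the genes of BiP chaperones and other folding helpers, which is called the unfolded protein response (UPR).

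Each array measured 43603 probes with Cy3. The levels below are log2 intensities after quantile normalization, so a difference of 1 is 2-fold, and a positive difference means a higher level in iU1-52. Features are genes, each by its brightest probe, or probes without a locus. They were compared with limma, with Benjamini-Hochberg adjustment of the p-values across 23680 tested features. To be called, a feature had to differ at least 2-fold with an adjusted p under 0.05. On the arrays compared, 76.9% to 79.4% of spots gave a signal well above background, and 0 were saturated. Replicate arrays had a median SD of 0.08 in either line, and their Pearson correlations, taken across features, lay between 0.99 and 1.00. Each slide carried 4 arrays with 1 sample of every group, and a group always lay at the same slide position, so the 2 cannot be told apart.

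The markers of green tissue and root were present in both lines. All 8 green tissue markers and all 9 root markers were well above background on the 6 arrays, and their mean levels differed by 0.02 and 0.06. Of the 8 seed markers, 6 were not well above background on any of the 6 arrays. The floral genes *AP1*, *AP3*, *PI*, *AG* and *SEP3*, which mark floral organs, were also detected on all 6 arrays, with a mean level from 8.06 on iU1-52 replicate 3 to 9.11 on iU1-52 replicate 1. The mean of the seed list was lower in iU1-52 by 0.22, with an SD of 0.132 between replicates. The exact permutation test (two-sided) gave p from 0.2 to 1 over the 4 marker lists, with Benjamini-Hochberg adjusted p from 0.8 to 1. Since 0.1 is the smallest p that 3 against 3 arrays allow, this test could not have shown a difference. In whole seedlings, fewer cells of a type and less RNA per cell cannot be told apart.

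The mutated gene was lower in iU1-52. *GlcNA.UT2* (AT2G35020) is measured by a pair of probes. The brighter probe, A_84_P225849, read 12.85, 12.66 and 12.67 in Col-0 and 11.71, 11.84 and 11.62 in iU1-52. The dimmer probe, A_84_P823089, read 9.59, 9.55 and 9.48 in Col-0 and 7.38, 7.32 and 7.32 in iU1-52. Neither probe overlapped between the lines, and both stayed well above background in iU1-52. The drop was 1.00 (SE 0.12, limma adjusted p = 0.00721) for the brighter probe and, in a limma fit of each probe on its own, 2.2 (adjusted p = 3.45e-05) for the dimmer probe. The study, from the same arrays, found no significant reduction of *GlcNA.UT2* in iU1-52. It proposes that the mutant transcript is truncated, remains detectable and is still bound by the probes. The value of the brighter probe lay at the 2-fold limit. It slipped under that limit when replicate 1 of Col-0 in MS was left out, where the drop was smallest (0.94), and also without replicate 1 of iU1-52 in MS, replicate 3 of iU1-52 in MS, or replicate 1 of Col-0 in NaCl. *GlcNA.UT1*, the target of the RNA interference, was not analysed here, since its locus matched the accession of 0 probes.

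The rest of the pathway to UDP-GlcNAc and its use held 10 further genes tested, and limma called 0 of them. At an unadjusted p under 0.05, 1 was higher, as were 3.96% of all features. The largest difference was that of *GFAT1*, the entry enzyme of the pathway, which read 8.48, 8.40 and 8.54 in Col-0 and 8.75, 8.74 and 8.87 in iU1-52. Its arrays did not overlap, but the difference of 0.32 did not pass the test (SE 0.07, limma adjusted p = 0.116). The other 9 lay between -0.08 and 0.01, among them *GNA1* and *DRT101*, the enzymes of the middle of the pathway, and *SEC*.

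Across all features, 76 were called (0.321% of those tested). Of these, 71 were higher in iU1-52 (0.300%) and 5 were lower (0.0211%), so the calls were mostly rises. The features called were 64 genes with a locus and 12 probes without one. For 59 of them the signal was well above background on all 6 arrays, and for 9 it was not well above background on any Col-0 array. For 8 of these 9 only a bound on the rise can be given, and for the probe A_84_P724814, which was not well above background on any of the 6 arrays, no fold is given. A Col-0 level was taken as measured where at least 1 Col-0 array was well above background. Over the 62 rises with a measured Col-0 level, the median difference was 1.48, with a range from 1.01 to 9.03. For 8 called features, the one with 9.03 among them, only 1 or 2 Col-0 arrays were well above background. The fold criterion removed some smaller changes: 111 features were higher (0.469%) and 12 lower (0.0507%) at the adjusted p alone.

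**Figure D1:**
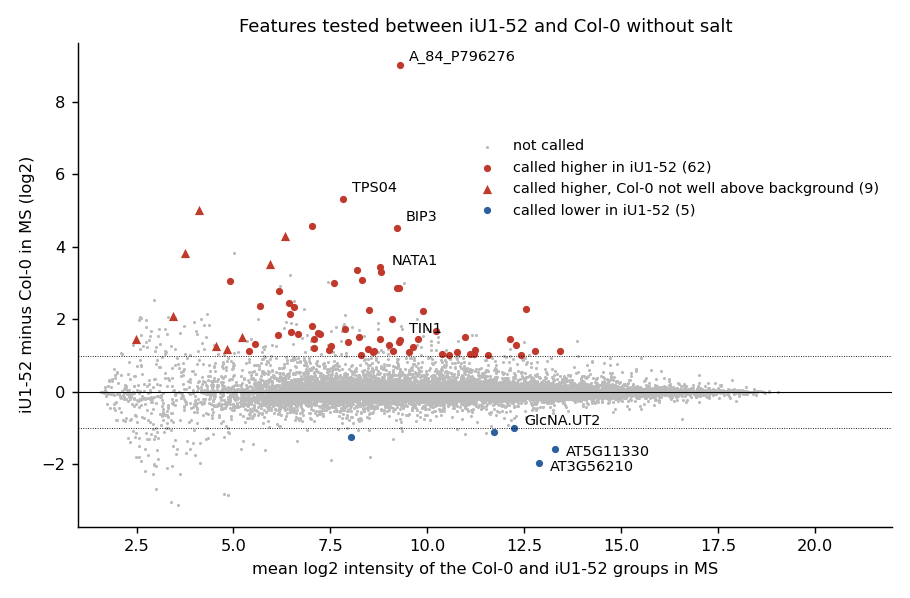
Difference between iU1-52 and Col-0 without salt (log2, vertical axis) against the mean log2 intensity of the 2 groups (horizontal axis) for the features tested, with dotted lines at 2-fold. Red marks the 71 features called higher in iU1-52, with triangles for the 9 that were not well above background on any Col-0 array, and blue the 5 called lower, which are all at intensities above 7.

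How far these calls rest on single arrays differed from gene to gene. Of the 76, 29 were called whichever of the 12 arrays was left out. The number called was 34 without iU1-52 replicate 2 and 38 without iU1-52 replicate 3. For the genes described below, it is said where leaving out an array ended the call. Arrays are those in MS unless NaCl is named.

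The list of ER chaperones and folding enzymes held 25 genes, with the ER stress gene *TIN1* among them. Of these, 3 were called and all 3 rose (0.300% of all features did). The study had named *TIN1* and *TMS1* as changed in this condition from the same arrays, so the count is not independent of that result. *BIP3*, the BiP gene that is nearly silent in unstressed plants and is used as a reporter of the UPR, read 7.68, 6.28 and 6.89 in Col-0 and 12.07, 11.19 and 11.17 in iU1-52. It was 23.1-fold higher (log2 difference 4.53, SE 0.43, limma adjusted p = 0.00188), the largest rise among the features that were well above background on all 6 arrays. *TIN1*, named for its induction by tunicamycin, an inhibitor of N-glycan synthesis, rose from 8.66, 8.65 and 8.44 to 10.24, 9.74 and 10.02, by 1.42 (SE 0.15, limma adjusted p = 0.00297). Both genes were called whichever array was left out. *TMS1*, which encodes the J-domain co-chaperone ERdj3A, read 8.25, 7.86 and 8.10 in Col-0 and 9.23, 8.97 and 9.39 in iU1-52. Its rise of 1.13 just passed the test (SE 0.20, limma adjusted p = 0.0420) and lost its call with the omission of each of the 6 arrays in MS, and of each of the 3 Col-0 arrays in NaCl (adjusted p up to 0.178).

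The other 22 genes of the list were not called, and their differences lay between -0.07 and 0.51. The constitutive BiP genes *BIP1* and *BIP2* read 14.36 to 14.41 and 14.49 to 14.59 in Col-0 and 14.54 to 14.65 and 14.73 to 14.90 in iU1-52. These are differences of 0.23 and 0.30, and neither passed the test (limma adjusted p = 1.00 for both). The highest difference among genes not called was that of *PDIL2-2*, a protein disulfide isomerase, which read 11.47, 11.44 and 11.64 in Col-0 and 12.01, 11.93 and 12.13 in iU1-52 (0.51, SE 0.10, limma adjusted p = 0.0690). The lowest was that of *P58IPK*, a J-domain protein of the ER lumen, at -0.07. Of the 25 genes of the list, every iU1-52 array lay above every Col-0 array for 16 (64.0%), against 7.28% of all features, and 21 differences were positive (84.0%), against 43.3% of all features. The median of the list was 0.19, against -0.01 for all features.

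Of the 14 genes that sense ER stress and clear misfolded proteins, limma called 0, and their differences lay between -0.03 and 0.21. *BZIP60*, whose mRNA is spliced by IRE1 in the UPR, read 13.19, 13.20 and 13.14 in Col-0 and 13.35, 13.35 and 13.40 in iU1-52 (0.19, limma adjusted p = 1.00). The array value does not separate the spliced from the unspliced form. *HRD1B*, a ubiquitin ligase of ER-associated degradation, had the highest difference, with 11.44, 11.43 and 11.46 in Col-0 and 11.67, 11.64 and 11.64 in iU1-52 (0.21, limma adjusted p = 0.529). *NAC062*, a membrane-bound factor of the UPR, had the lowest, at -0.03. In 4 of the 14 genes the iU1-52 arrays lay above all Col-0 arrays (28.6%, against 7.28% of all features), and 1 was higher at an unadjusted p under 0.05, as were 3.96% of all features.

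The genes that build and trim N-glycans differed little between the lines. Of the 24 genes of assembly and transfer, limma called 0, with 0 at an unadjusted p under 0.05, and all lay between -0.15 for *LEW1*, which acts in the synthesis of the dolichol carrier, and 0.08 for *GPT*, which adds the N-acetylglucosamine of UDP-GlcNAc to that carrier. *STT3A*, a catalytic subunit of the oligosaccharyltransferase, read 13.60, 13.58 and 13.63 in Col-0 and 13.65, 13.62 and 13.59 in iU1-52. The 14 genes of trimming and maturation likewise had 0 calls and 0 unadjusted p-values under 0.05, with differences between -0.04 for the fucosyltransferase gene *FUT11* and 0.13 for AT2G05320. The medians of both lists were -0.01, as for all features.

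**Figure D2:**
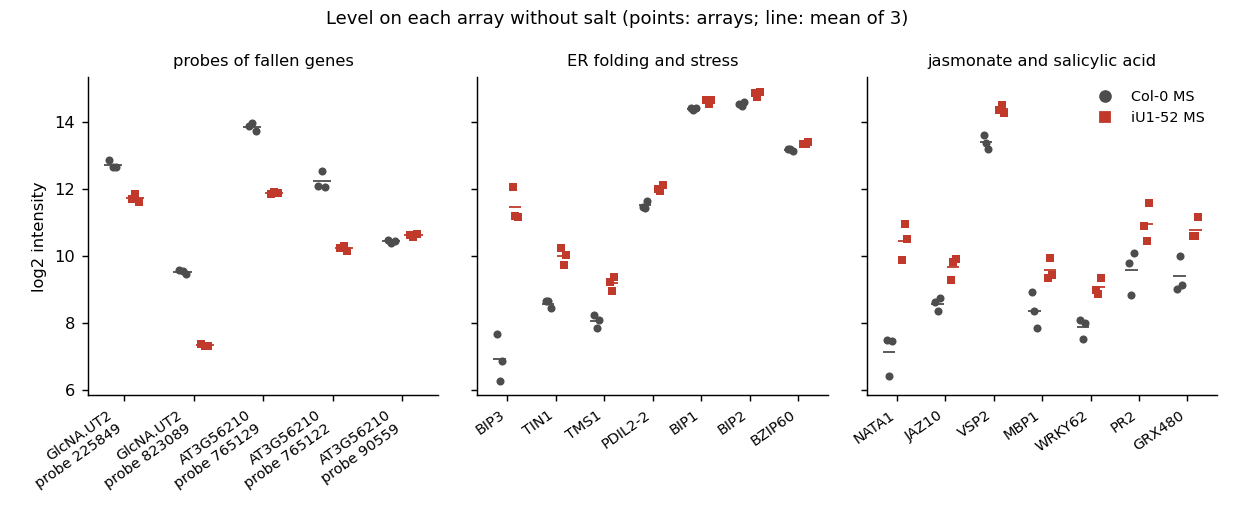
Log2 intensity on each of the 3 Col-0 (grey circles) and 3 iU1-52 arrays (red squares) without salt, with the group means as lines, for the probes of 2 fallen genes, for genes of ER folding and stress and for genes of jasmonate and salicylic acid. *BIP3*, *TIN1* and *TMS1* lie apart in the lines, *BIP1*, *BIP2* and *BZIP60* differ by 0.30 or less, and 1 of the 3 probes of AT3G56210 does not fall.

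Of the 23 genes of jasmonate synthesis and response, 1 was called higher, where 0.300% of all features were. A positive difference was found in 21 (91.3%), against 43.3% of all features. Jasmonates are lipid-derived hormones of wounding and of defense against insects and necrotrophic fungi, and their response is held back by JAZ repressor proteins, whose own genes are jasmonate-induced. The member called was *NATA1*, which encodes a jasmonate-induced ornithine acetyltransferase. *NATA1* read 7.52, 6.43 and 7.48 in Col-0 and 9.87, 10.95 and 10.52 in iU1-52, with no overlap. It was higher by 3.31 (SE 0.47, limma adjusted p = 0.0154) and was no longer called without iU1-52 replicate 2 or 3 (adjusted p up to 0.0831).

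The other 22 jasmonate genes tested were not called. *JAZ10*, a JAZ repressor gene, read 8.64, 8.37 and 8.75 in Col-0 and 9.30, 9.82 and 9.92 in iU1-52 (1.09, SE 0.21, limma adjusted p = 0.0603). *VSP2*, which encodes a vegetative storage protein and is a standard jasmonate marker, read 13.62, 13.37 and 13.20 in Col-0 and 14.37, 14.51 and 14.27 in iU1-52 (0.99, SE 0.20, limma adjusted p = 0.0714). Both sets of arrays were apart. *THI2.1*, a thionin gene, had the highest difference of the genes not called, 1.80 (limma adjusted p = 0.308), with 9.49, 11.52 and 9.67 in iU1-52 and 7.92 to 9.16 in Col-0. The myrosinase-binding protein gene *MBP1* had a difference of 1.2 (limma adjusted p = 0.235), and *LOX2*, a lipoxygenase of jasmonate synthesis, of 0.93 (limma adjusted p = 0.439). The study had named *VSP2* and *MBP1* as changed in this condition from the same arrays. It used another test, a 2-way ANOVA followed by a 2-fold criterion. The synthesis gene *AOC1* had the lowest value, -0.19, and its arrays overlapped.

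Counted as a list, 14 of the 23 jasmonate genes (60.9%) had every iU1-52 array above every Col-0 array, against 7.28% of all features, and the median difference was 0.69, against -0.01. *VSP2* and *MBP1*, which the study had named from the same arrays, are in this list, so its counts are not independent of that result. The defensin genes *PDF1.2A*, *PDF1.2B* and *PDF1.3*, which need ethylene together with jasmonate, overlapped between the lines, as did *ORA59*, the factor that drives them, at 0.04. In NaCl the picture was another: 21 of the 23 differences were positive in MS and 9 in NaCl. Of all 23680 features, 10263 were positive in MS and 12761 in NaCl. Among the 21 genes positive in MS, 12 were negative in NaCl, as were 4214 of the 10263 features positive in MS.

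Further jasmonate-related and volatile genes were among the features called. *JRG21*, one of the 20 largest well-measured rises, is an oxygenase gene whose product inactivates jasmonic acid. It read 6.87, 6.09 and 6.54 in Col-0 and 9.73, 9.60 and 10.28 in iU1-52 (3.37, SE 0.35, limma adjusted p = 0.00321). The other genes of this and the next paragraph except *DXPS1* were picked after their values had been seen. *TPS04*, the geranyllinalool synthase gene, read 5.45, 4.11 and 5.96 in Col-0, where 2 of the 3 arrays were well above background, and 10.52, 10.10 and 10.86 in iU1-52 (5.32, SE 0.61, limma adjusted p = 0.00501). Geranyllinalool is turned by CYP82G1 into a volatile homoterpene that leaves give off after insect attack. *CYP82G1* was not well above background on any Col-0 array and was at least 16.2-fold higher in iU1-52 (limma adjusted p = 0.000627), where it read 8.71, 8.27 and 8.47. *BSMT1*, whose product methylates salicylic and benzoic acid to volatile esters, was likewise not well above background in Col-0 and was at least 4.59-fold higher in iU1-52 (limma adjusted p = 0.00429). As the level of Col-0, these bounds take the lowest signal that was well above background on each array, or the reading itself where that was higher. All 4 genes were called whichever array was left out. Of the volatile genes looked up with them, *TPS03*, *TPS10* and *TPS21* were too dim on every array to be tested.

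*MES1*, an esterase gene whose product hydrolyzes methyl salicylate, rose from 10.52, 10.37 and 10.87 to 11.41, 11.83 and 11.68, by 1.05 (SE 0.15, limma adjusted p = 0.0158). It lost its call with the omission of replicate 1 or 2 of Col-0 and of 2 or 3 of iU1-52 (adjusted p up to 0.0831). AT2G38240, which the annotation used here does not name, rose by 4.59 (SE 0.40, limma adjusted p = 0.000917) from 5.17, 4.19 and 4.80 to 8.68, 9.64 and 9.60, with 2 of 3 Col-0 arrays well above background. *DXPS1*, a gene of the deoxyxylulose phosphate synthase family of the plastid isoprenoid pathway, read 8.07, 6.31 and 6.84 in Col-0 and 10.45, 10.21 and 10.84 in iU1-52 (3.43, SE 0.43, limma adjusted p = 0.00721). Both of the latter were called whichever array was left out.

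Salicylic acid acts in defense against biotrophic pathogens through NPR1 and its partners. Of the 24 genes of this list, 1 was called higher, where 0.300% of all features were. *WRKY62*, a salicylic acid-induced transcription factor gene, read 8.10, 7.53 and 8.00 in Col-0 and 8.99, 8.88 and 9.34 in iU1-52 (1.19, SE 0.19, limma adjusted p = 0.0291). It lost its call with the omission of Col-0 replicate 2 or 3, of each of the 3 iU1-52 arrays, or of Col-0 replicate 2 in NaCl (adjusted p up to 0.125). A pair of genes of salicylic acid synthesis passed the adjusted p but stayed under 2-fold. *PBS3*, which conjugates the precursor isochorismate, read 8.39, 8.25 and 8.34 in Col-0 and 9.14, 9.04 and 9.26 in iU1-52 (0.82, SE 0.09, limma adjusted p = 0.00499). *EDS5*, which exports that precursor from the plastid, had a difference of 0.58 (SE 0.11, limma adjusted p = 0.0492). *ICS1*, which makes the precursor, read 9.13 to 9.26 in Col-0 and 9.16 to 9.39 in iU1-52, and its arrays overlapped.

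The highest difference of the list was that of *GRX480*, a glutaredoxin gene induced by salicylic acid, which read 9.03, 10.02 and 9.15 in Col-0 and 10.60, 10.60 and 11.17 in iU1-52 (1.39, SE 0.30, limma adjusted p = 0.0934). *PR2*, a glucanase gene used as a defense marker, read 9.81, 8.85 and 10.10 in Col-0 and 10.89, 10.45 and 11.57 in iU1-52 (1.38, SE 0.33, limma adjusted p = 0.143). *WRKY38*, the close relative of *WRKY62*, had a difference of 1.07 (limma adjusted p = 0.209). *PR1* overlapped, with 6.56, 7.64 and 9.27 in Col-0 and 7.16, 8.70 and 9.09 in iU1-52, and the regulators *EDS1*, *PAD4* and *NPR1* differed by 0.13 or less. *SAG101*, a partner of EDS1, had the lowest value, -0.06. Of the 24 genes, 23 had a positive difference (95.8%, against 43.3% of all features), 11 did not overlap (45.8%, against 7.28%), and the median was 0.49. These counts include *PR2* and *WRKY38*, so they are not independent of the result of the study. The gene *ALD1* of this list was too dim on every array to be tested.

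**Figure D3:**
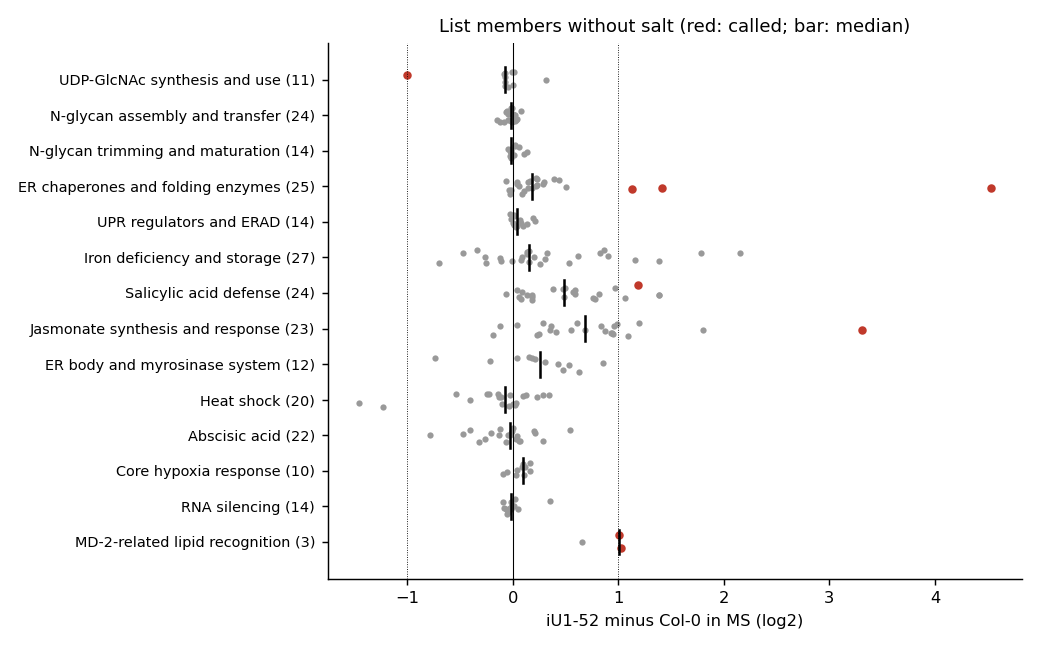
Difference between iU1-52 and Col-0 without salt (log2) for every tested gene of the 14 lists, with the number tested in parentheses; red points were called, black bars are list medians, and dotted lines mark 2-fold. The medians of the jasmonate list (0.69), the salicylic acid list (0.49) and the MD-2-related list (1.01) lie farthest to the right, and those of the N-glycan lists lie at -0.01. The study had named AT5G23830 and AT5G23840 of the MD-2-related list as higher from these same arrays. It had also named *VSP2* and *MBP1* of the jasmonate list and *PR2* and *WRKY38* of the salicylic acid list as changed.

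Genes of specialized metabolism formed another part of the rises. Among the 184 genes tested whose symbol starts with CYP, the prefix of cytochrome P450 genes, 7 rose (3.80%, where all features gave 0.300%). The median of the 184 was 0.03, and whether all of them are P450 genes was not checked. Of those that rose, *CYP82G1* and *CYP71A18* were not well above background on any Col-0 array. *CYP71A18* was well above background on 2 iU1-52 arrays, and its rise was bounded only at 1.04-fold or more. This count was made after the calls had been seen. *CYP71A12*, which acts in indole metabolism, read 7.12, 6.75 and 8.24 in Col-0 and 9.29, 9.59 and 10.02 in iU1-52 (2.26, SE 0.35, limma adjusted p = 0.0234). It was not called with the omission of replicate 1 or 2 of Col-0, 2 or 3 of iU1-52, or 3 of Col-0 in NaCl (adjusted p up to 0.115). *CYP71A13* of the camalexin pathway had 1 Col-0 array well above background and a difference of 2.93 (limma adjusted p = 0.0697), *PAD3*, which completes camalexin, had 0.87 (limma adjusted p = 0.204), and *CYP79B2* and *CYP79B3*, which act upstream, had 0.38 and 0.10. *CYP71A20* read 8.55, 7.98 and 7.75 in Col-0 and 9.73, 10.12 and 10.47 in iU1-52 (2.01, SE 0.27, limma adjusted p = 0.0110), with the call lost without iU1-52 replicate 2 or 3 (adjusted p up to 0.0630).

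The root triterpene clusters, in which synthase and P450 genes lie side by side, were also chosen after their values had been seen. *THAS1*, the thalianol synthase gene, read 11.46, 11.72 and 11.75 in Col-0 and 12.75 to 13.02 in iU1-52 (1.28, SE 0.22, limma adjusted p = 0.0420). Its neighbour *CYP708A2*, the thalianol hydroxylase gene, read 7.81, 8.25 and 8.10 in Col-0 and 8.94, 9.18 and 9.32 in iU1-52 (1.1, SE 0.18, limma adjusted p = 0.0310). *CYP705A1*, whose product cleaves arabidiol, had a difference of 1.23 (SE 0.17, limma adjusted p = 0.0130), and *PEN1* beside it, the arabidiol synthase gene, of 0.83 (limma adjusted p = 0.0157), under 2-fold. All 9 genes of 3 such clusters that were looked up had iU1-52 arrays above all Col-0 arrays, which 7.28% of all features had, with differences from 0.68 for AT5G47980 to 3.04 for the marneral synthase gene *MRN1*, which had 2 of 3 Col-0 arrays well above background (limma adjusted p = 0.0746). The calls were not firm to single arrays: *THAS1* lost its call with the omission of each of the 6 arrays in MS, each Col-0 array in NaCl and iU1-52 replicate 3 in NaCl (adjusted p up to 0.184). *CYP708A2* lost its call with the omission of each of the 6 arrays in MS and of Col-0 replicate 1 or 3 in NaCl (adjusted p up to 0.150), and *CYP705A1* with that of replicate 2 of either line (adjusted p up to 0.0662).

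The largest rise of all belonged to a probe without a locus. A_84_P796276 read 5.16, 4.97 and 4.21 in Col-0, where 2 of 3 arrays were well above background, and 13.81, 13.82 and 13.79 in iU1-52. The difference was 9.03 (SE 0.30, limma adjusted p = 5.51e-07), and in NaCl it was 6.37. A_84_P796812, likewise without a locus, was not well above background in Col-0 and read 5.64, 5.76 and 5.62 in iU1-52, at least 2.37-fold higher (limma adjusted p = 5.02e-05). Both were called whichever array was left out. The transcripts that these probes detect were not analysed here.

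The remaining genes of the 20 largest well-measured rises covered several roles. *RLP40*, a receptor-like protein gene, read 6.34, 6.45 and 7.53 in Col-0 and 9.72, 9.84 and 9.99 in iU1-52 (3.08, SE 0.44, limma adjusted p = 0.0158). *ABCG40*, a transporter gene of the plasma membrane that takes up abscisic acid, read 7.33, 7.18 and 8.87 in Col-0 and 10.51, 10.81 and 10.69 in iU1-52 (2.88, SE 0.43, limma adjusted p = 0.0202). *ELI3-2*, an elicitor-activated alcohol dehydrogenase gene, read 8.23, 6.77 and 8.52 in Col-0 and 10.51, 10.33 and 11.25 in iU1-52 (2.85, SE 0.46, limma adjusted p = 0.0258). In each of these genes 1 Col-0 array stood apart from the other two, but no Col-0 array reached the iU1-52 arrays. *RLP40* lost its call when replicate 1 or 2 of Col-0 was left out, or 2 or 3 of iU1-52 (adjusted p up to 0.0831). *ABCG40* lost it with each array in MS other than Col-0 replicate 3 (up to 0.0997), and *ELI3-2* with Col-0 replicate 1, each iU1-52 array or Col-0 replicate 2 in NaCl (up to 0.120).

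*MRD1*, a gene of unknown function, read 5.90, 6.15 and 6.26 in Col-0 and 9.52, 9.58 and 8.21 in iU1-52 (3.00, SE 0.32, limma adjusted p = 0.00398). *MSRB8*, a methionine sulfoxide reductase gene that repairs oxidized proteins, rose by 1.67 (SE 0.22, limma adjusted p = 0.00888) and *BAP2*, whose product restrains cell death, by 1.65 (SE 0.25, limma adjusted p = 0.0213). *MRD1* and *MSRB8* were called whichever array was left out. *BAP2* lost its call with the omission of each of the 3 Col-0 arrays and of iU1-52 replicate 3 (adjusted p up to 0.101). The other features of this set were AT1G49570, AT3G28220, AT5G52390, AT4G37850, AT1G57630, AT5G35375, AT5G24200 and the probe A_84_P753508, with rises between 1.60 and 2.29. Of these, AT5G52390, AT1G57630, AT5G35375 and A_84_P753508 were called whichever array was left out. AT3G28220 lost its call without iU1-52 replicate 1 or 2. AT4G37850 and AT5G24200 each kept theirs in 5 of the 12 omissions, and AT1G49570 in 1, that of Col-0 replicate 1.

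Of the 3 neighbouring genes of the MD-2-related lipid recognition (ML) family that were listed, 2 were called higher, where 0.300% of all features were. The study had named these genes, AT5G23830 and AT5G23840, as higher in this condition from the same arrays. The count is therefore not an independent result. *ML3* (AT5G23820) read 10.25, 10.62 and 10.31 in Col-0 and 11.00, 10.97 and 11.17 in iU1-52, a difference of 0.66 that passed the adjusted p but not the fold criterion (SE 0.11, limma adjusted p = 0.0310). Its neighbours AT5G23830 and AT5G23840 were called, with 1.01 and 1.02. AT5G23830 read 11.87, 11.81 and 12.08 in Col-0 and 12.79, 12.97 and 13.02 in iU1-52. AT5G23840 read 9.85, 10.19 and 10.14 in Col-0 and 10.97, 11.19 and 11.10 in iU1-52. Leaving out Col-0 replicate 1 or iU1-52 replicate 2 ended both calls, and leaving out Col-0 replicate 2 or iU1-52 replicate 3 ended that of AT5G23830 (adjusted p up to 0.101). The 3 genes are related, and binding of the transcript of a neighbour to these probes was not tested. Of the ER body and myrosinase genes, which serve defense by glucosinolate breakdown, 0 of 12 were called by limma, with 8 higher and 1 lower at an unadjusted p under 0.05, against 3.96% and 1.90% of all features. *BGLU22*, a glucosidase gene of the ER body, had the highest difference, 0.85 (limma adjusted p = 0.215), *ESM1*, an epithiospecifier modifier gene, the lowest, -0.74 (limma adjusted p = 0.695). In 7 of the 12 (58.3%, against 7.28% of all features) the iU1-52 arrays lay above all Col-0 arrays.

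The iron deficiency genes differed widely among the iU1-52 replicates. Plants short of iron induce the factors bHLH38, bHLH39, bHLH100 and bHLH101, which with FIT switch on the transporter gene *IRT1*, and lower the ferritin genes that store iron. Of the 27 genes tested, 0 were called by limma. At an unadjusted p under 0.05, 6 were higher and 2 lower, against 3.96% and 1.90% of all features. *BHLH101* read 6.78, 5.92 and 7.60 in Col-0 and 10.19, 8.68 and 6.78 in iU1-52 (1.78, SE 0.77, limma adjusted p = 0.791). *BHLH100* read 3.44, 1.58 and 4.70 in Col-0, where 1 array was well above background, and 8.94, 5.51 and 1.74 in iU1-52. *IRT1* read 6.01, 6.13 and 7.13 in Col-0 and 8.75, 8.03 and 4.97 in iU1-52. In all of these, replicate 1 of iU1-52 was the highest and replicate 3 lay within or below the Col-0 arrays.

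A pair of small genes of the list, AT1G47400 and AT1G47395, did not overlap between the lines. AT1G47400 read 7.17, 7.21 and 6.89 in Col-0 and 9.53, 8.27 and 7.64 in iU1-52 (1.39, SE 0.43, limma adjusted p = 0.344), and AT1G47395 had a difference of 1.16 (SE 0.44, limma adjusted p = 0.624). The ferritin genes were lowest in the array in which the uptake genes were highest. *FER1* read 15.47, 15.27 and 15.58 in Col-0 and 14.61, 14.97 and 15.33 in iU1-52, and *FER4* read 14.35 to 14.39 in Col-0 and 13.93, 14.10 and 14.34 in iU1-52, with replicate 1 the lowest in both. *NAS3*, a nicotianamine synthase gene, had the lowest difference of the list, -0.70 (limma adjusted p = 0.936). With *FER3*, *FER4* and the vacuolar transporter gene *VTL1* it made up the 4 genes (14.8%) whose iU1-52 arrays all lay below Col-0, against 8.90% of all features. The iU1-52 arrays all lay above Col-0 for 5 genes (18.5%), against 7.28% of all features. AT1G47400 and AT1G47395 are among these, so this count is not independent of the result of the study. For 15 of the 27 genes (55.6%), iU1-52 replicate 1 was the highest of the 6 arrays, against 17.2% of all features.

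**Figure D4:**
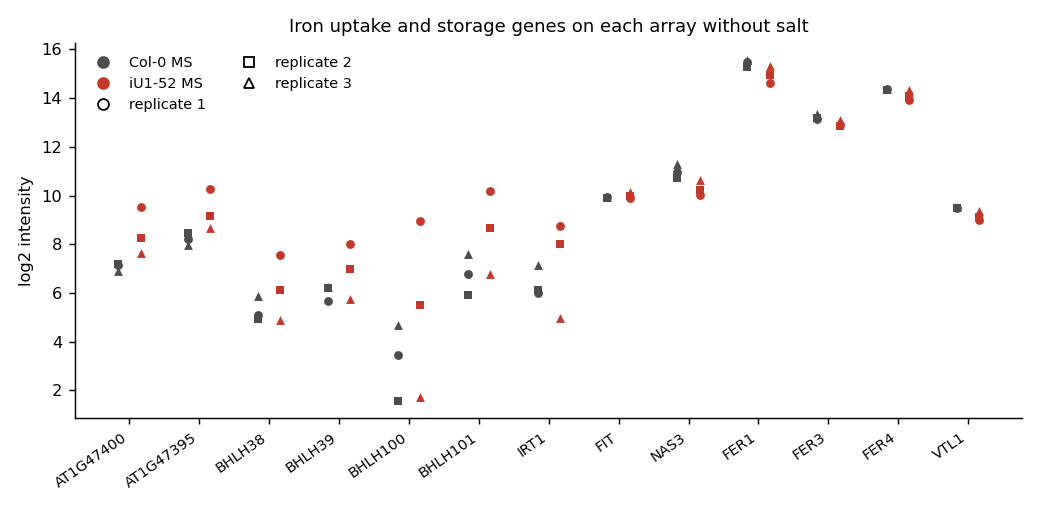
Log2 intensity of 13 iron uptake and storage genes on each array without salt, Col-0 in grey and iU1-52 in red, with the replicate number given by the shape. In the uptake regulators and *IRT1*, iU1-52 replicate 1 (circle) is highest and replicate 3 (triangle) lies near or below Col-0, and in *FER1* and *FER4* iU1-52 replicate 1 is lowest.

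In the lists of abscisic acid, heat, low oxygen and RNA silencing limma called 0 genes. For abscisic acid, 22 genes were tested, with a median of -0.02. At an unadjusted p under 0.05, 1 was higher and 1 lower, against 3.96% and 1.90% of all features. The differences ranged from -0.78 for *COR15A* to 0.54 for *KIN1*, both of them cold- and dehydration-induced genes. *COR15A* read 11.31, 7.53 and 7.22 in Col-0, so its value rests on Col-0 replicate 1, and *NCED3*, which controls abscisic acid synthesis, read 7.63, 7.52 and 7.64 in Col-0 and 7.93, 7.83 and 7.87 in iU1-52 (limma adjusted p = 1.00). For heat shock, 20 genes had a median of -0.07, with 2 lower at an unadjusted p under 0.05. The lowest was *HSP21*, a chloroplast small heat shock protein gene, which read 7.57, 5.16 and 5.97 in Col-0 and 4.71, 5.11 and 4.52 in iU1-52 (-1.45, SE 0.58, limma adjusted p = 0.685), and again Col-0 replicate 1 stood apart. *HSFA2*, a heat-induced factor gene, had the highest difference among the heat genes that were well above background on all 6 arrays, 0.28. The 10 hypoxia genes lay between -0.10 for *LBD41* and 0.17 for *HRE2*. Of these 10 genes, 8 had a positive difference, against 43.3% of all features. In 4 of the 10 every iU1-52 array lay above every Col-0 array, against 7.28% of all features. The 14 silencing genes, which process double-stranded RNA into small RNA, lay between -0.10 for *RDR2* and 0.35 for *AGO5*, and 0 of them had groups apart in either direction. In the last 2 lists 0 genes had an unadjusted p under 0.05.

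Besides *GlcNA.UT2*, 4 features fell, and all were called whichever array was left out. AT5G11330, which has no name in the annotation, read 14.15, 14.10 and 14.03 in Col-0 and 12.62, 12.44 and 12.47 in iU1-52. It fell by 1.58 (SE 0.07, limma adjusted p = 2.88e-06). AT3G56210, also unnamed, was measured by 3 probes that did not move together. Its brightest probe, A_84_P765129, read 13.89, 13.96 and 13.73 in Col-0 and 11.85, 11.92 and 11.89 in iU1-52, and fell by 1.97 (SE 0.13, limma adjusted p = 0.000127 in the fit of each probe on its own, from which the values of the other probes come as well). A_84_P765122 fell by 1.99 (limma adjusted p = 0.00167), from 12.08, 12.54 and 12.06 to 10.25, 10.31 and 10.16. A_84_P90559 read 10.48, 10.40 and 10.44 in Col-0 and 10.64, 10.58 and 10.66 in iU1-52 (0.18, limma adjusted p = 1.00). The parts of the transcript that these probes read were not analysed here.

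The other fallen features were probes without a locus. A_84_P822203 read 8.43, 8.92 and 8.59 in Col-0 and 7.32 to 7.50 in iU1-52 (-1.24, SE 0.12, limma adjusted p = 0.00188). A_84_P867277 read 12.24, 12.30 and 12.31 in Col-0 and 11.17, 11.23 and 11.08 in iU1-52 (-1.12, SE 0.09, limma adjusted p = 0.000627). A second probe with the accession of the latter, A_84_P572868, fell by 1.1 (limma adjusted p = 8.36e-05). Over all features called, 14 had more than 1 probe kept, and of their 16 further probes 14 differed in the same direction and 10 were called.

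The same features were then read in the seedlings with salt. The interaction, which is the difference in NaCl minus that in MS, passed an adjusted p of 0.05 for 28.8% of all features. It passed for 32 of the 62 rises with a measured Col-0 level, and 30 of these rises were smaller or absent in NaCl. Since the rises were chosen for their size in MS and the interaction subtracts that same value, this count is a description only. *TIN1* and *TMS1* were the 2 with a larger rise in NaCl, at 2.91 and 2.46. *BIP3* differed by 2.63 in NaCl, where Col-0 had risen to a mean of 8.38 from 6.95 in MS. *NATA1* had a difference of -0.18 in NaCl (limma adjusted p = 0.769), and *TPS04* differed by 1.61. AT3G28220 changed sign, from 2.24 in MS to -2.39 in NaCl, while AT3G56210 fell by 1.97 in both conditions. Of the 71 rises, 43 were of features that salt raised in Col-0 by the same criteria. Another 6 were of features that salt lowered, and 22 of features that salt did not change. The rise and the salt response both subtract the same Col-0 level in MS, so this count too is a description only. The share of all features that salt raised is not given here. The spread between the iU1-52 replicates in NaCl, with a median SD of 0.215, was larger than that of the other 3 groups, which lay between 0.0714 and 0.0794.

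**Figure D5:**
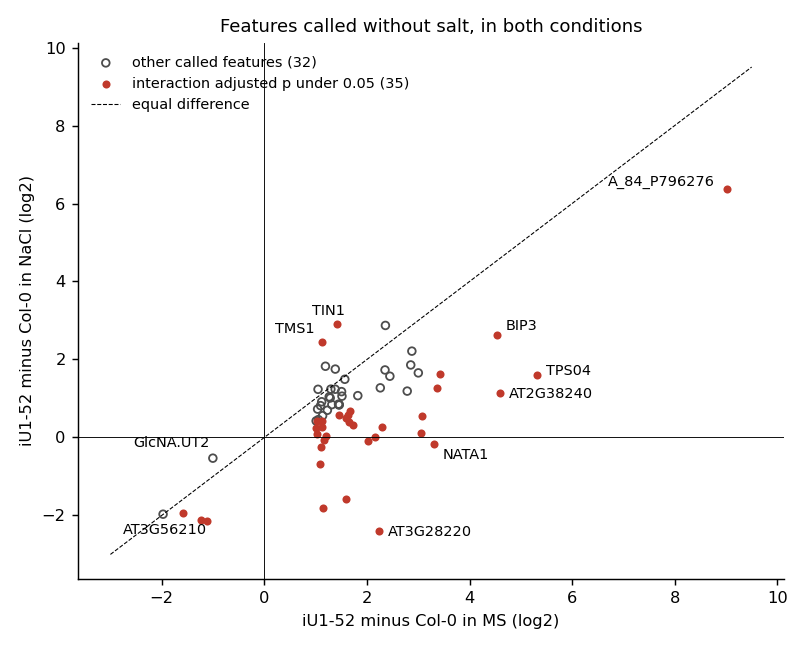
Difference between iU1-52 and Col-0 in NaCl (log2, vertical axis) against that in MS (horizontal axis) for the 67 called features with at least 1 Col-0 array well above background. Red points have an interaction at an adjusted p under 0.05, and the dashed line marks equal differences, with *TIN1* and *TMS1* above it and *BIP3*, *TPS04* and *NATA1* below it.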

How the data were processed

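Total RNA of whole seedlings was hybridized with Cy3 label to 12 one-colour Agilent arrays, of which 6 were compared here. Per the file headers, the authors deposited Feature Extraction 10.7.1.1 output, in which the processed signal is a background-corrected linear intensity per spot. From these intensities, spots with an outlier flag were dropped, spots of a probe were averaged, probes under 100 on all 12 arrays were removed (31498 of 43603 kept), and arrays were quantile normalized and log2 transformed. Each gene was represented by its brightest probe. Loci came from matching accessions to RefSeq genes (78.8% of probes matched). Differences were tested with limma 3.58.1 in R 4.3.3, with 1 mean per group over all 12 arrays, because the methods test the 4 groups together. This gives 3 arrays a group and 8 residual degrees of freedom, which limits the precision. Genes were named by a rule: the 20 largest rises and up to 10 falls that were well above background on all 6 arrays, members of lists that were called or highest or lowest, and genes the study names for this condition. Others are marked as picked later. The members and lists were chosen with earlier results of these data known. The model was tested on simulated data. Alternatives changed the scaling, background correction, filter, probes, samples, block and test. No sequences were used.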

Additional observations from a re-analysis of the deposited data

Results flagged for a closer look

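For 43 of the 67 named genes and probes (64.2%) the difference between iU1-52 and Col-0 was not the same with and without salt by limma's interaction term, with adjusted p from 4.29e-05 for *ESM1* to 0.0484 for *DXPS1*, against 28.8% of all features. The values given are the log2 difference in NaCl minus that in MS, so a negative value means a lower level of iU1-52 relative to Col-0 in NaCl. Many of these genes were named for their value in MS, which the interaction subtracts. The iU1-52 arrays in NaCl had the largest spread between replicates (median SD 0.215), and its part in these values was not tested. Among the 20 largest rises, the value was -4.62 for AT3G28220, -3.48 for *NATA1*, -3.16 for AT5G24200, -2.54 for *RLP40*, -2.13 for AT5G52390, -2.11 for *JRG21*, -2.10 for *CYP71A20*, -2.02 for AT1G49570, -1.90 for *BIP3*, -1.80 for *DXPS1*, -1.41 for AT1G57630, -1.27 for *BAP2*, -1.09 for AT5G35375, -1.07 for A_84_P753508 and -0.98 for *MSRB8*. Of the defense and jasmonate genes, the value was -4.81 for *ESM1*, -3.60 for *PR2*, -3.04 for *MBP1*, -2.70 for *VSP2*, -2.55 for *WRKY38* and 0.42 for *SAG101*. Of the iron genes, the value was -2.85 for *NAS3*, -2.71 for AT1G47400 and -2.58 for AT1G47395. Of the markers of green tissue, root and seed, the value was -4.17 for *CA1*, -2.49 for *LHCB2.1*, -0.42 for *MYB36* and 2.31 for *EM6*. Of the MD-2-related genes and the features that fell, the value was -0.77 for AT5G23830, -0.59 for AT5G23840, -1.03 for A_84_P867277, -0.88 for A_84_P822203 and -0.35 for AT5G11330. Of the genes of UDP-GlcNAc and N-glycans, the value was 0.68 for *GFAT1*, -0.37 for *LEW1*, 0.47 for *FUT11* and 0.66 for *GPT*. Of the ER and heat genes, the value was 1.49 for *TIN1*, 1.33 for *TMS1*, 1.01 for *HRD1B*, 0.51 for *P58IPK*, 1.31 for *HSFA2* and 5.05 for *HSP21*. *ESM1* had a difference of -5.55 in NaCl, and *HSP21* turned from -1.45 in MS to 3.60 in NaCl.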

How the results depend on the processing

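The 76 calls (71 higher, 5 lower, 8 of them list members, 42 with an interaction) were recomputed under other settings. The adjusted p alone gave 123 (111 higher, 12 lower), the fold criterion alone 283 (203 higher, 80 lower, 20 list members) and the methods' 2-way ANOVA with the fold criterion 138 (132 higher). Array weights gave 122 (115 higher, 66 with an interaction), and normexp background correction left 3 list members and 25 interactions. The normexp setting also replaced the processed signal by the median spot and background signals, so it changed more than the correction. With only the 6 arrays in MS there were 35 calls (31 higher, 4 list members), and 30 of the 76 were among them. This fit has fewer samples. Fallen features numbered 11 with no filter on dim probes, 8 with a filter on signal well above background and 8 with each probe on its own. The drop of *GlcNA.UT2* went under 2-fold with scaling to the 75th percentile (-0.98), normexp (-0.96), only the 6 arrays in MS (-0.99) and array weights (-0.96), with the adjusted p still under 0.05 in these. Where no cause is given, the cause was not tested.

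Same-numbered arrays of the lines in MS share a slide. Their deviations correlated with 0.143, 0.0732 and 0.108, and iU1-52 replicate 2 correlated more with Col-0 replicate 3 (0.157), so the replicate numbers were not taken to pair the samples. The replicate block gave 74 calls, 68 of them among the 76. The replicate block with only the 6 arrays in MS gave 28 (25 higher, 3 lower, 3 list members), with *GlcNA.UT2* at -0.99 and its limma adjusted p at 0.0701. Testing each probe without a locus on its own, chosen after seeing the data, gave 78 calls.

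Omitting single arrays gave between 34 and 89 calls (28 to 83 higher, 4 to 7 lower, 3 to 8 list members, 21 to 51 interactions) and -1.06 to -0.94 for *GlcNA.UT2*. The fewest calls came without iU1-52 replicate 2 (34) and replicate 3 (38) in MS. The marker lists kept their values within 1 SD; the seed markers gave no value with only the 6 arrays in MS, since fewer of them passed the filter. Signals not well above background in Col-0 limit 8 of the rises to bounds and leave 1 without a fold.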
